A study of Mus musculus with 2 samples.

Results

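The 10 epithelial miRNA genes described here are Mir200b, Mir200a and Mir429, which form a cluster on chromosome 4, Mir200c and Mir141, which form a second cluster on chromosome 6, Mir183, Mir96 and Mir182, which form the Mir183 cluster elsewhere on chromosome 6, and the single genes Mir203 on chromosome 12 and Mir205 on chromosome 1. They were picked by name, as genes known from epithelial tissues, from the 2202 miRNA genes listed for each library. The libraries came from hearts of 2 male B6CASTF1/J mice, the first-generation cross of C57BL/6J with a CAST strain, aged 25 days, and held RNA of under 30 nucleotides. The labels name no treatment and no engineered allele, so both libraries form 1 group, with 1 library numbered replicate 1 and 1 numbered replicate 2. The animals are numbered separately but carry the same donor identifier, and the sample descriptions give the age with months as its unit where the other labels give days. If the libraries are not from separate animals, the spread between them is not one between animals. Replicate 1 held 4930853 reads assigned to a miRNA gene and replicate 2 held 5229819. Levels are given after scaling each library to a sum of 1000000 (CPM), so that 1 count equals 0.203 CPM in replicate 1 and 0.191 CPM in replicate 2. The heart muscle genes Mir499, Mir208a and Mir208b, which lie in introns of myosin genes, were all present. Together they held 4486 CPM in replicate 1 and 6512 CPM in replicate 2, but they did not share a direction. In replicate 1, Mir208a was lower (1361 against 3562 CPM), Mir499 higher (2933 against 2758 CPM) and Mir208b nearly level (191 against 192 CPM).

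MicroRNAs are cut from hairpin transcripts and guide repression of messenger RNAs that pair with the seed, bases 2 to 8 of the mature strand. The miR-200 family is best known for repressing the transcription factors ZEB1 and ZEB2, which in turn repress the miR-200 genes, so that epithelial cells hold the miRNAs and mesenchymal cells hold the factors. The Mir183 cluster is known from sensory organs such as the inner ear and the retina, miR-203 from the differentiating layers of the skin, and miR-205 from stratified epithelia. The heart wall consists mostly of muscle, endothelial and stromal cells. In RNA from whole tissue, fewer cells of a type and less RNA in each cell cannot be told apart.

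The mature strands known as the active ones are shown because the seed sorts the genes differently from their clusters. Sequences are those of RefSeq (GRCm38.p6), 5′ to 3′, with the seed in capitals, and all 10 genes were found there by symbol. The deposited counts are per gene and do not separate the strands of a hairpin.
miR-200b-3p: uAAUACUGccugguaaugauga
miR-429-3p: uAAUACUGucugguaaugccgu
miR-200c-3p: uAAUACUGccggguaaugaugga
miR-200a-3p: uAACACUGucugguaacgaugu
miR-141-3p: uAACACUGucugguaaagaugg
miR-183-5p: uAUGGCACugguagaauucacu
miR-96-5p: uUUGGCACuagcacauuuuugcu
miR-182-5p: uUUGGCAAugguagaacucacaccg
miR-203-3p: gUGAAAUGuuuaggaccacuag
miR-205-5p: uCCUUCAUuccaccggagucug

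miR-200b, miR-429 and miR-200c carry the seed AAUACUG, and miR-200a and miR-141 carry AACACUG. These seeds differ at base 4 of the mature strand, as U4C between miR-200b and miR-200a, counted from 1 at the 5′ end. Each of the chromosome 4 and chromosome 6 clusters therefore holds both seeds. miR-200b and miR-200c differ at 2 of 22 bases, U11G and A22G, and miR-200a and miR-141 at C17A and U22G, all outside the seed. miR-96 and miR-182 share bases 2 to 7 but differ at base 8 and so have separate seeds, while miR-183 and miR-182 are alike at 18 of 22 bases. Among the mature miRNAs in RefSeq, the only other one with any of these 7 seeds is miR-1271-5p, which has that of miR-96. None of the 10 mature sequences occurs in the hairpin of another listed miRNA gene. The longest run that a member's hairpin shares with another is 17 bases, between Mir200a and Mir141, so a full-length read without mismatches matches only 1 of the listed genes. The genome outside these genes was not searched.

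In mm10, Mir200b (chromosome 4, 156055681 to 156055750), Mir200a (156054896 to 156054985) and Mir429 (156053905 to 156053987) lie in this order on the minus strand, with 695 and 908 bases between the hairpins. In GENCODE M21 all of them lie in an intron of Ttll10, a gene of the tubulin tyrosine ligase-like family, and within the non-coding transcript Gm13648, of which Mir429 overlaps an exon. Mir200c (chromosome 6, 124718322 to 124718390) and Mir141 (124717914 to 124717985), also on the minus strand, are 336 bases apart in an intron of the non-coding gene Gm15884, and Mir141 overlaps an exon of Gm29008. Mir183 (chromosome 6, 30169668 to 30169737), Mir96 (30169446 to 30169551) and Mir182 (30165918 to 30165992) are intergenic on the minus strand, with 116 bases between Mir183 and Mir96 and 3453 between Mir96 and Mir182. Mir203 (chromosome 12, 112130880 to 112130955, plus strand) is intergenic, 3321 bases from Aspg. Mir205 (chromosome 1, 193507463 to 193507530, minus strand) overlaps an exon of the long non-coding RNA 4631405K08Rik.

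Together the 10 genes held 2072 counts in replicate 1 and 2389 in replicate 2. In replicate 1 this was 0.0420% of assigned counts, with a 95% interval (Clopper-Pearson, exact) from 0.0402 to 0.0439%. In replicate 2 it was 0.0457%, with an interval from 0.0439 to 0.0475%. Intervals throughout cover counting error only. The sources name no molecular identifiers, so any copies of 1 molecule made in amplification count as separate reads. The intervals and exact tests treat all reads as independent and may therefore understate the error. Of the 10 genes, 7 had at least 10 counts in both libraries and are called detected, against 16.2% of all listed genes. The others, Mir200a, Mir205 and Mir96, had under 10 counts in replicate 2, and no member was at 0 in both libraries, whereas 1448 of the listed genes were. The median level was 13.3 CPM over all 10 members and 0 CPM over all listed genes. Over the detected genes alone it was 21.6 CPM for the members and 60.3 CPM for all 356. Reads placed at several loci are in no gene's count, so these shares and medians describe uniquely placed reads only.

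Mir200c, the leading member of the miR-200 family here, had 1116 counts in replicate 1 and 1659 in replicate 2, or 226 and 317 CPM. Its mean of 272 ± 64.3 CPM (SD, n = 2) ranked 105th of the listed genes and was 3.58 times the next member's. Mir203, the skin miRNA, followed with 342 counts in replicate 1 and 432 in replicate 2, or 69.4 and 82.6 CPM, a mean of 76.0 ± 9.36 CPM and rank 166. These values put Mir200c above Mir203, and Mir203 above the remaining members, in both libraries without overlap of the counting intervals. The ranks among all listed genes go by uniquely placed reads, so a gene whose reads fit several loci can rank below its level.

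Mir200b had 263 counts in replicate 1 and 44 in replicate 2, or 53.3 and 8.41 CPM, and its mean of 30.9 ± 31.8 CPM has an SD as large as the mean. Mir429, its cluster partner with the same seed, had 144 counts in replicate 1 and 73 in replicate 2, or 29.2 and 14.0 CPM (mean 21.6 ± 10.8 CPM). Mir200b was above Mir429 in replicate 1 and below it in replicate 2, so their order is not fixed. Mir141 had 64 and 72 counts in replicates 1 and 2, or 13.0 and 13.8 CPM, and Mir183 had 62 and 73, or 12.6 and 14.0 CPM. Their means of 13.4 ± 0.557 and 13.3 ± 0.979 CPM did not differ beyond their spread. The library values of Mir429 stayed above those of Mir141, but the counting intervals of the pair overlapped in replicate 2.

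Mir182 had 53 counts in replicate 1 and 26 in replicate 2, or 10.7 and 4.97 CPM, below Mir183 in both libraries but with overlapping intervals in replicate 1. Mir200a had 17 counts in replicate 1 and 5 in replicate 2, or 3.45 and 0.956 CPM, and Mir205 had 10 and 5 counts, or 2.03 and 0.956 CPM. These genes were below Mir182 in both libraries and did not differ from each other beyond their spread. Mir96, known for its role in the hair cells of the inner ear, had 1 count in replicate 1, or 0.203 CPM with a 95% interval of 0.00513 to 1.13 CPM. It had 0 counts in replicate 2, for which the same kind of interval reaches up to 0.705 CPM, and the limit of 3 counts that an observed 0 allows is 0.574 CPM. Mature strands of the members are 22 to 25 bases long, so these CPM values compare genes of nearly equal length. How evenly the library preparation captured different sequences was not examined, so orders and ratios between genes, here and below, are those of reads.

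**Figure D1:**
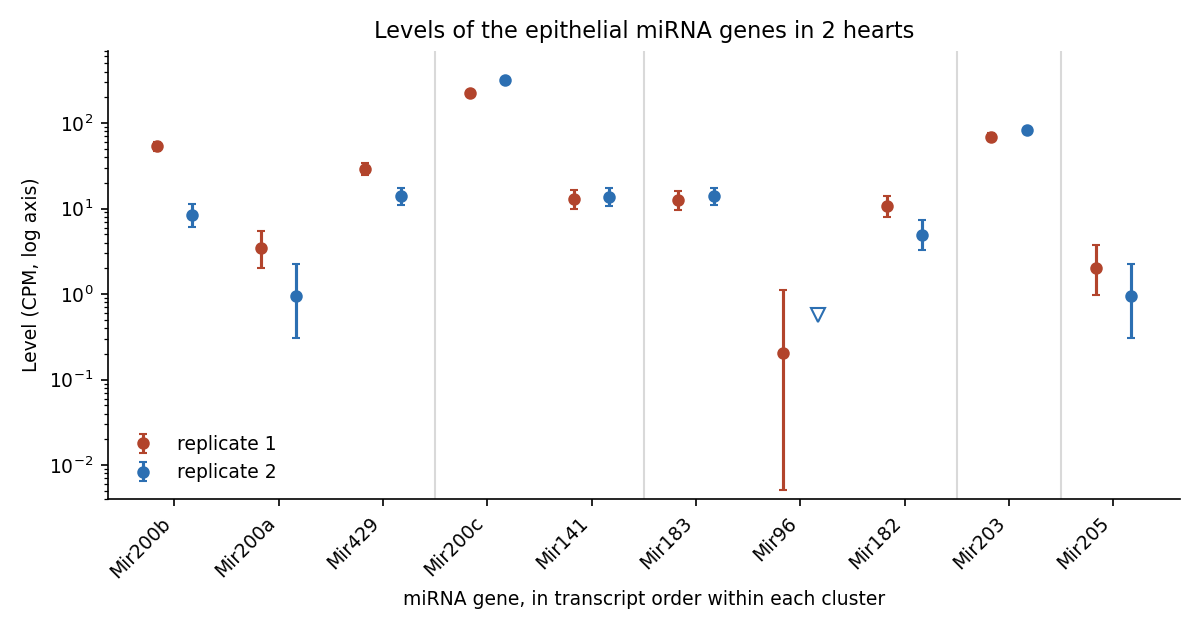
Level of each of the 10 genes in CPM (log axis) in replicate 1 (red) and replicate 2 (blue), with exact Poisson 95% intervals of the counts; grey lines separate the transcription units, and the open triangle marks the limit of 3 counts (0.574 CPM) that 0 counts allow for Mir96 in replicate 2. Mir200c and Mir203 stand above the other members in both libraries, and Mir200b, at 53.3 and 8.41 CPM, has the largest ratio between the libraries among the detected members.

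By distance of log2 CPM over the 2 libraries, the detected genes closest in level to Mir200c were Mir210, known as the miRNA of the hypoxia response, Mir125b-1 and Mir874. Mir210 had 240 and 322 CPM in replicates 1 and 2, a distance of 0.09 on the log2 scale. Mir125b-1 had 256 and 324 CPM, at a distance of 0.18, and Mir874 had 235 and 382 CPM, at a distance of 0.27. Whether these genes share sequence with other loci was not examined. Reads placed at several loci are in no gene's count, so the likeness is one of uniquely placed reads.

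The libraries differed in opposite directions for the clusters of the miR-200 family. The chromosome 4 cluster was higher in replicate 1, with 424 counts there and 122 in replicate 2, or 86.0 and 23.3 CPM. That is a ratio of replicate 1 over replicate 2 of 3.69 (exact 95% interval 3.01 to 4.55). The chromosome 6 cluster was lower in replicate 1, with 1180 counts there and 1731 in replicate 2, or 239 and 331 CPM, a ratio of 0.723 (0.671 to 0.779). The Mir183 cluster had 116 counts in replicate 1 and 99 in replicate 2, or 23.5 and 18.9 CPM, a ratio of 1.24 with an interval that includes 1 (0.942 to 1.64). With 1 library per replicate number, any differences between animals and between library preparations cannot be told apart.

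For each gene, the split of its counts over the 2 libraries was set against the split of the library totals by an exact binomial test, with Benjamini-Hochberg adjustment over all 356 detected genes. The test compares these libraries and not conditions, and no replicate stands behind either side. Of the 7 detected members 5 differed at an adjusted p below 0.05, in a table where 63.5% of all tested genes did, so this count is near the background. Of the 5, 3 were higher in replicate 1 (background 30.6%) and 2 were lower in replicate 1 (background 32.9%), and 3 differed by more than 2-fold (background 17.7%). The median log2 ratio of replicate 1 over replicate 2 was -0.08 for the tested members and -0.02 for all tested genes, whose SD was 0.86.

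Mir200b was higher in replicate 1 with a CPM ratio of 6.34 (exact 95% interval 4.59 to 8.94; adjusted p = 1.43e-41, exact binomial test). Its log2 ratio of 2.65 was exceeded in the same direction by 3 of the 356 tested genes, Mir451a, Mir301 and Mir144. Some genes left untested for low counts in replicate 2 had larger log2 ratios in that direction. Mir429 was higher in replicate 1 by 2.09 (1.57 to 2.81; adjusted p = 3.27e-07, exact binomial test). The third gene of the cluster, Mir200a, was not tested because of its 5 counts in replicate 2, and its ratio was 3.61 (1.28 to 12.5). All 3 genes of the chromosome 4 cluster thus lay higher in replicate 1, and the intervals of Mir200b and Mir429 do not overlap.

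On chromosome 6, Mir200c was lower in replicate 1 with a ratio of 0.713 (0.661 to 0.770; adjusted p = 4.94e-18, exact binomial test). Its partner Mir141 had a ratio of 0.943 with a wider interval (0.663 to 1.34) that includes both 1 and the ratio of Mir200c, and it was not called (adjusted p = 0.878, exact binomial test). Depth therefore does not show whether these neighbours moved apart.

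In the Mir183 cluster, Mir182 was higher in replicate 1 by 2.16 (1.33 to 3.60; adjusted p = 0.00190, exact binomial test). Mir183 was not called, at 0.901 (0.632 to 1.28; adjusted p = 0.642, exact binomial test). Mir96, with 1 count in both libraries together, gives no ratio. Mir203 was lower in replicate 1 at 0.840 (0.726 to 0.970; adjusted p = 0.0263, exact binomial test), a call that was lost with TMM scaling (adjusted p = 0.0750, exact binomial test) and with counts taken without strand (0.0668). Mir205 was not tested and had a ratio of 2.12 (0.661 to 7.91).

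**Figure D2:**
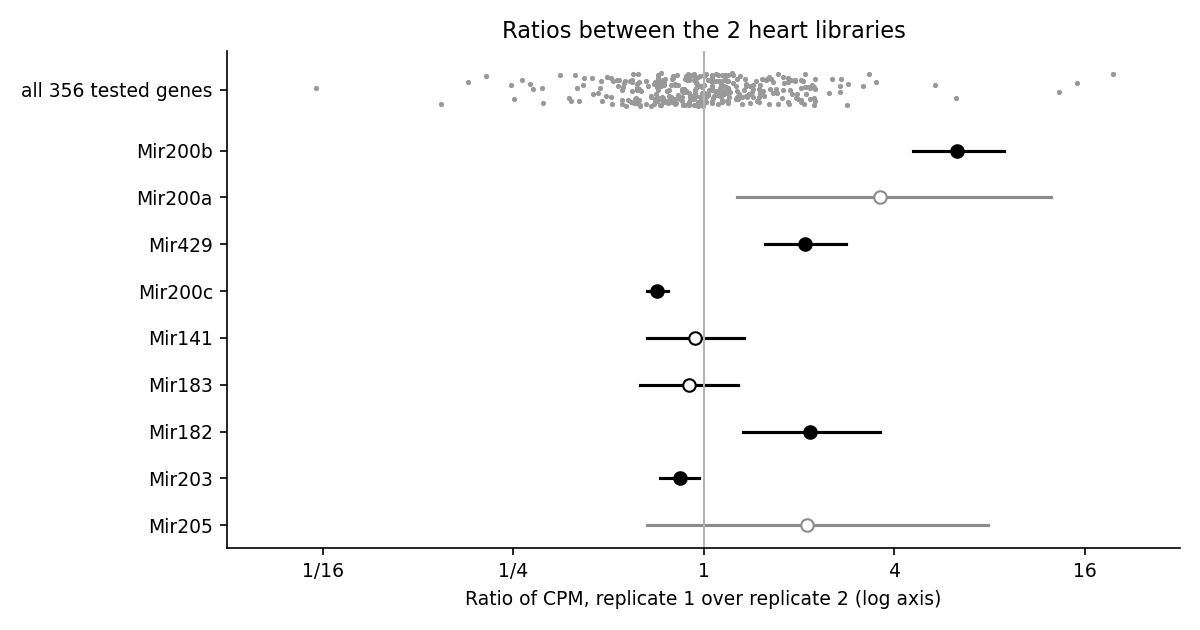
Ratio of CPM, replicate 1 over replicate 2 (log axis), of 9 members with exact 95% intervals, and of all 356 tested genes (grey points, top row). Filled points passed the exact binomial test (for Mir203 the call was lost with TMM scaling, with unstranded counts and without Mir451a and Mir144 in the totals), open black points did not, and grey ones were not tested; Mir200b at 6.34 lies near the right edge of the tested genes, and Mir200c at 0.713 lies left of 1 with the narrowest interval of the members.

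The position of the members among all tested genes is shown by level and ratio together. Mir200c and Mir203, the most abundant members, lay within 1 SD of all log2 ratios, at -0.49 and -0.25. Mir429 at 1.06 and Mir182 at 1.10 lay beyond 1 SD, and Mir200b at 2.65 beyond 3.

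**Figure D3:**
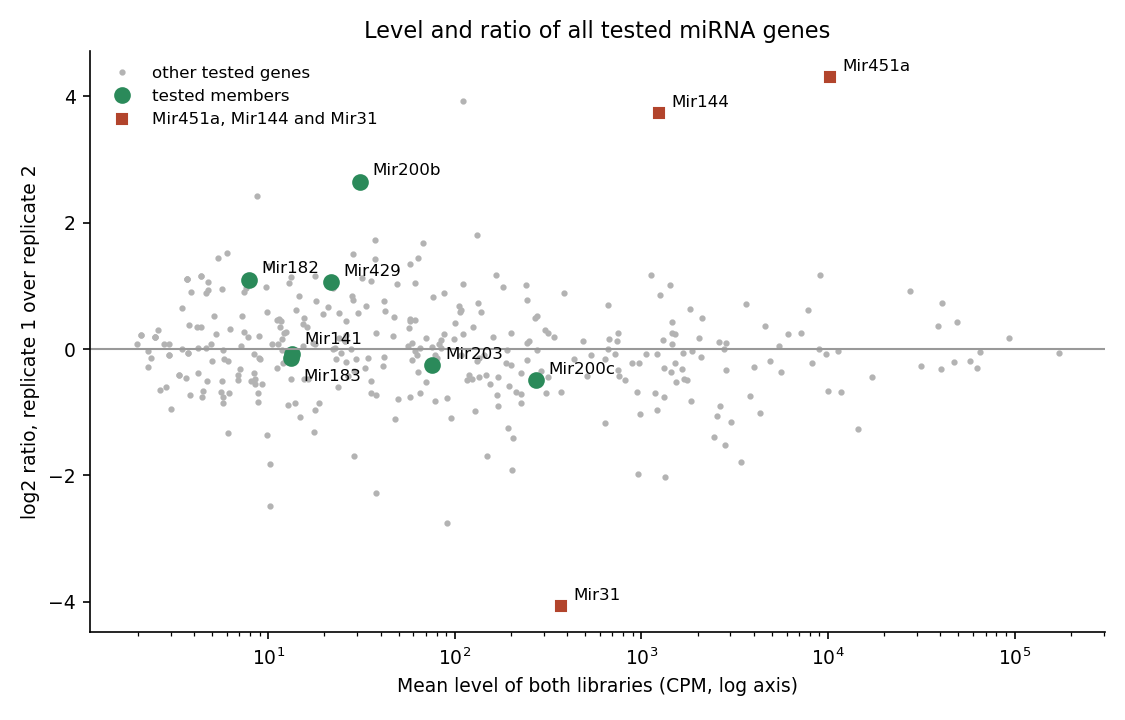
log2 ratio of replicate 1 over replicate 2 against the mean CPM of both libraries (log axis) for all 356 tested genes, with the 7 tested members in green. Mir200b stands above the cloud of genes of similar level at 2.65, and the other 6 members lie between -0.49 and 1.10; the red cell genes Mir451a and Mir144 and the gene Mir31 are marked in red.

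Within clusters, the proportions of Mir200b to Mir429 and of Mir183 to Mir182 also differed between the 2 libraries. In replicate 1, Mir200b was at 1.83 times Mir429 (exact 95% interval 1.48 to 2.25). In replicate 2, it was at 0.603 times Mir429 (0.405 to 0.888). Mir200b exceeded Mir200a by 15.5 times in replicate 1 (9.48 to 27.0) and 8.80 times in replicate 2 (3.50 to 28.4), with overlapping intervals. The excess of Mir200c over Mir141 was 17.4 times in replicate 1 (13.5 to 22.8) and 23.0 times in replicate 2 (18.2 to 29.6). These intervals overlap as well. Mir183 over Mir182 was 1.17 in replicate 1 (0.798 to 1.72) and 2.81 in replicate 2 (1.77 to 4.58). In both miR-200 clusters the gene with the AACACUG seed, Mir200a or Mir141, thus had the fewest counts of its cluster in both libraries. In the Mir183 cluster, Mir96 with 1 count in replicate 1 and 0 in replicate 2 lies 116 bases downstream of Mir183 with 62 and 73.

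**Figure D4:**
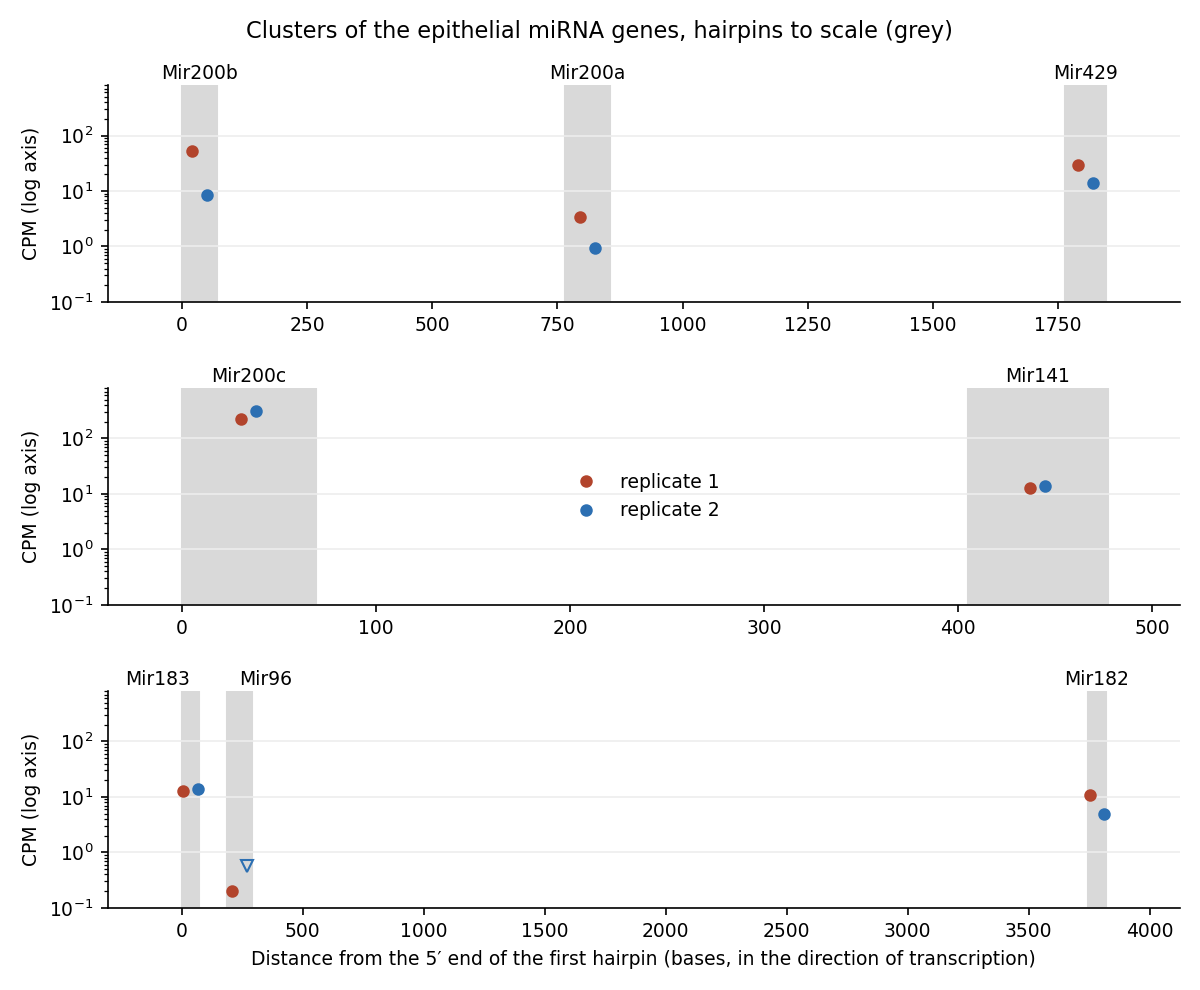
The 3 clusters with hairpins drawn to scale (grey) by distance in bases from the 5′ end of the first hairpin, and the level of each gene in CPM (log axis) in replicate 1 (red) and replicate 2 (blue); the open triangle is the limit of 3 counts for 0 counts. Mir200b, Mir200a and Mir429 are all higher in replicate 1, while Mir200c is lower in replicate 1 and Mir141 is nearly level at 13.0 and 13.8 CPM.

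Summed by seed, the opposite ratios of the clusters nearly offset each other. The 3 genes with the seed AAUACUG (Mir200b, Mir429 and Mir200c) held 309 and 340 CPM in replicates 1 and 2, a ratio of 0.910 (exact 95% interval 0.849 to 0.975). The 2 genes with AACACUG (Mir200a and Mir141) held 16.4 and 14.7 CPM in replicates 1 and 2, a ratio of 1.12 (0.807 to 1.54). The AAUACUG genes made up 73.5% of the members' counts in replicate 1 and 74.3% in replicate 2. Within that share, Mir200b held 12.7% of the members' counts in replicate 1 and 1.84% in replicate 2, and Mir200c held 53.9% and 69.4%. The sum over all 10 genes had a ratio of 0.920 (0.867 to 0.976).

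**Figure D5:**
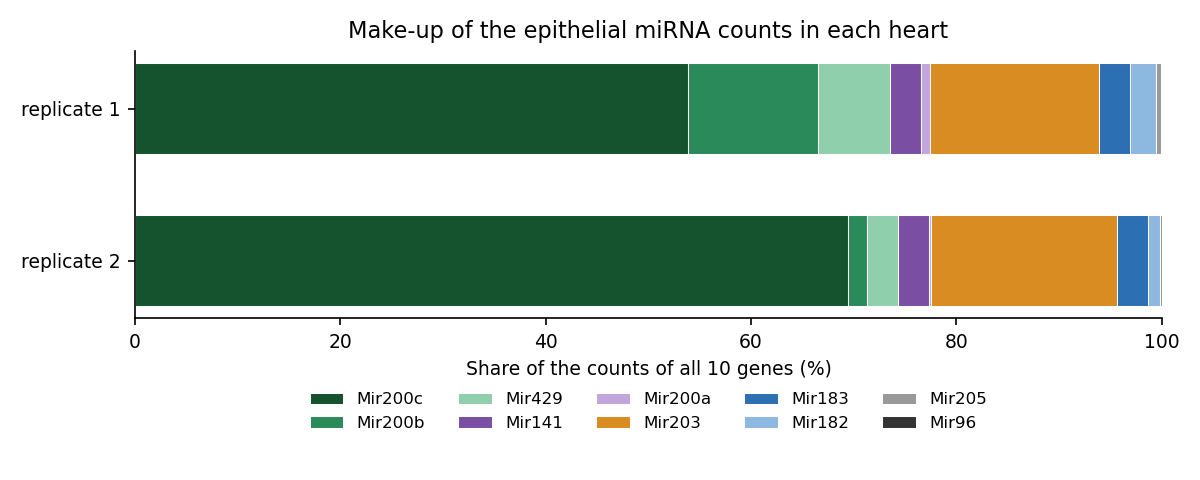
Share in percent of the counts of all 10 genes held by each gene, in replicate 1 (upper bar) and replicate 2 (lower bar), with the AAUACUG genes in green and the AACACUG genes in purple. The green part is nearly equal, at 73.5% and 74.3%, although Mir200b takes 12.7% of the upper bar and 1.84% of the lower.

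Markers of other cells differed between the libraries as well. The red cell genes Mir451a, Mir144 and Mir486, all 3 detected, summed to 22542 CPM in replicate 1, against 2335 CPM in replicate 2. Mir451a and Mir144 were higher in replicate 1, as the chromosome 4 cluster was, and Mir486 was lower. With Mir451a and Mir144 left out of the library totals, the log2 ratio of that cluster was 1.91, against 1.88 with them, and Mir203 lost its call (adjusted p = 0.0545, exact binomial test). Any other part of red cells in the result was not tested. Of the 8 stromal genes 7 were detected and 6 were lower in replicate 1, as Mir200c was. Mir143, the most abundant of them, was at 28767 and 34638 CPM in replicates 1 and 2. Mir21a was at 1540 and 5341 CPM and Mir214 at 1868 and 4173 CPM in replicates 1 and 2. The sum of the 8 stromal genes was 35806 CPM in replicate 1 and 51530 CPM in replicate 2, with Mir199a-1 at 0 in both. The hairpin of Mir199a-1 has a run of 28 bases in common with Mir199b, and reads fitting several loci are not counted, so its 0 is not a measure of its level. The 3 endothelial genes, led by Mir126a, were all lower in replicate 1 and summed to 57798 and 72017 CPM in replicates 1 and 2. The 5 leukocyte genes, led by Mir155, summed to 5437 and 6444 CPM, with 1 higher and 3 lower in replicate 1; with TMM scaling Mir155 was also called, as higher in replicate 1 (log2 ratio 0.05, adjusted p = 0.00383, exact binomial test). The part of these cells in the members' ratios was not tested. The neuronal and sensory list has 9 genes, of which the members Mir182 and Mir183 were detected and Mir96 was not. Of its other 6 genes none was detected, and Mir124a-1, Mir124a-2, Mir124a-3 and Mir9-2 were at 0 in both libraries. The hairpins of these 6 share runs of 26 to 33 bases with a listed gene at another locus, and reads placed at several loci are in no gene's count, so these low counts do not measure neuronal miRNAs.

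Mir203 also had reads on the strand opposite to the gene, where RefSeq places the mature strands of a second miRNA, miR-203b, and GENCODE M21 lists no gene. The sequences of both miRNAs are shown because each mature strand of miR-203b faces one of miR-203 over 20 bases. The strands of miR-203 lie on the plus strand of chromosome 12 (GRCm38.p6) from 112130927 to 112130948 (3p, printed above) and from 112130889 to 112130910 (5p). Those of miR-203b lie on the minus strand from 112130927 to 112130946 (5p) and from 112130887 to 112130908 (3p).
miR-203-5p: aGUGGUUCuugacaguucaaca
miR-203b-5p: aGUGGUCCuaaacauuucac
miR-203b-3p: uUGAACUGucaagaaccacugg

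The opposite strand of Mir203 had 14 counts in replicate 1 and 3 in replicate 2. These were 3.93% (exact 95% interval 2.17 to 6.51%) of all reads at the locus in replicate 1 and 0.690% (0.142 to 2.00%) in replicate 2. Over the 2138 listed genes with no listed gene on the other strand, the share was 0.00348% and 0.00343% in replicates 1 and 2, or 125 and 130 counts. By opposite-strand counts Mir203 ranked 2nd of these genes in replicate 1 and 9th in replicate 2, with 11.2% and 2.31% of the counts. In replicate 1, 7 of the 2138 genes had more than 3 such counts, and in replicate 2, 8 had. Mir183, where RefSeq lists no miRNA on the other strand, had 0 opposite counts in replicate 1 and 7 in replicate 2, of 62 and 80 reads on either strand, and ranked 3rd in replicate 2. Mir205 had 0 and 1, and the other members had none in either library. The read sequences are not part of the tables, so reads of miR-203b were not distinguished from other reads of that strand.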

How the data were processed

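MicroRNA libraries of 2 mouse hearts were analysed. The deposited files give raw read counts for each miRNA gene, made by the authors with mm10 and GENCODE M21 per the text that accompanies them. Which aligner and counter were used is not given in the sources used here. The column for the gene's strand was used. Reads unmapped (15.0% in replicate 1 and 20.2% in replicate 2), at several loci (41.6% and 37.4%) or outside miRNA genes (6.03% and 6.00%) were tallied apart by the authors and left out of totals. All identifiers were matched to GENCODE M21.

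Ratios are replicate 1 over replicate 2. Log2 values add 0.5 counts. Intervals are exact at 95% (Clopper-Pearson or Poisson). Genes with at least 10 counts in both libraries were tested by a two-sided exact conditional binomial test with Benjamini-Hochberg adjustment (scipy 1.17.1, Python 3.11.15). The test was checked on simulated counts that held counting error only, without variation between animals or library preparations. With 1 group, no quasi-likelihood test was possible. TMM factors came from edgeR 4.0.16 and size factors from DESeq2 1.42.0, as alternatives.

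Members and marker lists (heart muscle, stromal, endothelial, red cell, leukocyte, neuronal and sensory, multiciliated, gut, kidney and liver, other epithelial) were chosen with earlier results of these data known. Named genes are all members, up to 4 of each list by mean CPM, list members at 0, and the 3 genes closest in level to Mir200c. Mir301, Mir194-2, Mir375, Mir7-2, Mir216a, Mir216b and Mir217 were named after their values were seen. Of the neuronal and sensory list, Mir96, Mir182 and Mir183 are members.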

Additional observations from a re-analysis of the deposited data

Results flagged for a closer look

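Reads on the strand opposite to a member, which are not part of the members' levels and tests on their own strand, exceeded the 3 counts that an observed 0 allows in 2 instances. Over the 2138 listed genes without a listed gene on the other strand, 7 did so in replicate 1 and 8 in replicate 2. The opposite strand of Mir203 had 14 counts in replicate 1, against 3 in replicate 2, and that of Mir183 had 7 counts in replicate 2, against 0 in replicate 1. Each instance lies in 1 library, and neither has a replicate.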

How the results depend on the processing

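Depth limits the members with few counts: Mir141, at 64 and 72 counts, has a ratio interval of 0.663 to 1.34, and Mir200a, at 17 and 5, one of 1.28 to 12.5. The number of genes differing between the libraries (226) lay between 180 and 242 with TMM or DESeq2 scaling, no filter, a minimum of 100 counts, unstranded counts, or the red cell genes left out of the totals, the last chosen after seeing the data. The number of members differing (5) was 4 with TMM, unstranded counts or without the red cell genes, in each case because Mir203 lost its call. It was 6 with no filter, which added Mir200a (adjusted p = 0.0299, exact binomial test), and 2 with a minimum of 100 counts, where only 2 members were detected and tested. The summed level of the members (439 CPM) was 607 CPM with unstranded counts, where the members' counts hardly changed but the library totals were smaller. It was 162 CPM with all reads as the total, 1322 CPM without the 10 most abundant genes in the total and 167 CPM without Mir200c. Leaving out each replicate gave 420 to 457 CPM. None of the ratios of the 9 members with one changed sign with TMM or DESeq2 scaling, unstranded counts, other pseudocounts or without the red cell genes in the totals, and none of the 3 clusters' ratios did with the same scalings, totals and unstranded counts. A ratio between the libraries has no value with a library left out. No paired analysis was possible because the 2 libraries form 1 group.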

Other observations

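Genes known from other epithelia were also measured. For all lists in this section, sharing of hairpin sequence with other loci was not examined. Reads placed at several loci are in no gene's count, so the counts given here may fall short of a gene's level. Of the 5 genes known from multiciliated cells, Mir34c was at 12.8 and 62.7 CPM in replicates 1 and 2 and was lower in replicate 1 (adjusted p = 1.72e-40, exact binomial test). Mir449a was at 25.4 and 32.1 CPM and was not called, Mir34b had 6 and 14 counts, and Mir449b and Mir449c were at 0 in both libraries. The 5 genes known from gut, kidney and liver, Mir215, Mir192, Mir122, Mir194-1 and Mir194-2, were all detected and summed to 121 and 114 CPM in replicates 1 and 2. Of these, Mir215 and Mir122 were higher and both Mir194 genes lower in replicate 1, and Mir192 was not called.

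Of the 11 genes of other epithelia and glands, 8 were detected, 4 of them higher and 1 lower in replicate 1. Under TMM scaling Mir7-2 became another one called higher (adjusted p = 0.0467, exact binomial test). They summed to 377 and 921 CPM in replicates 1 and 2, and Mir31 alone was at 41.6 and 698 CPM. Without Mir31 the sums were 335 and 223 CPM. Mir204 was at 130 and 81.1 CPM, Mir7b at 65.5 and 32.1 CPM and Mir375, a miRNA of endocrine cells, at 24.5 and 10.9 CPM in replicates 1 and 2, each higher in replicate 1. Mir224 was at 89.0 and 80.5 CPM and was not called. The pancreatic genes Mir216a and Mir216b had at most 2 counts in either library, and Mir217 had 3 counts in replicate 1 and 20 in replicate 2. Several single genes of other epithelia were thus at levels like those of Mir203 and Mir200b, and their directions between the libraries differed from gene to gene.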
